A study of Mus musculus with 2 samples.

Results

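The annexins are a family of membrane-binding proteins, and their transcripts were compared between intestines of Apc Min mice with and without an epithelial deletion of Setd2. The members were the rows of the deposited gene table whose symbol was Anxa1, Anxa2, Anxa3, Anxa4, Anxa5, Anxa6, Anxa7, Anxa10, Anxa11 or Anxa13, which gave 10 genes of 18919. The table also lists Anxa8 and Anxa9, so that it holds 12 annexins, and these other two are described separately. The Setd2 KO library came from mice of genotype APCmin; Setd2IEC-/-, in which Setd2, the enzyme that trimethylates histone H3 over transcribed genes, is deleted in intestinal epithelial cells (IEC). The control library came from APCmin mice. All mice were on the C57BL/6 background, 2 months old and untreated, and all of them carry the Apc mutation, which causes intestinal adenomas. Each library was made from the mixed RNA of 3 littermates, so each genotype had 1 library and no difference between genotypes has a replicate check. The line that drives the deletion is not given in the sources used here.

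Annexins bind phospholipids with acidic head groups, such as phosphatidylserine, when calcium is present. Each has a conserved core of annexin repeats, which holds the calcium sites, and an N-terminal tail of its own, through which several members dock partners such as S100 proteins. In epithelia they organise membrane domains, take part in vesicle traffic and exocytosis and help to seal torn plasma membrane. In the annotation that the authors deposited with the table, all 10 members carried the function metal ion binding, against 3.83% of all genes. The term phospholipid binding was given for 9 of the 10, with Anxa2 as the exception, against 0.428% of all genes. Lipase inhibitor activity was given for Anxa2, Anxa3 and Anxa4, and for 4 genes of the table in all. Each term was searched in this wording, and related terms that start with other words were not counted.

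The libraries held 8646358 expected counts for Setd2 KO and 8809678 for control. Setd2 was at 3.47 FPKM (fragments scaled to transcript length and library size) in the Setd2 KO pool and 6.87 FPKM in the control pool, a count ratio of 0.504 (95% counting interval 0.432 to 0.587). Enterocyte markers were abundant in both pools, with a summed level of 23027 FPKM in Setd2 KO and 31586 FPKM in control over 12 genes, as the labelled tissue would have. The Setd2 KO library stood apart in transcripts of neighbouring organs. Summed levels were 2452 FPKM in Setd2 KO and 65.0 FPKM in control for 12 genes of the exocrine pancreas, and 68.3 FPKM in Setd2 KO and 3.14 FPKM in control for 9 genes of the stomach. Of the 9 stomach genes, Gkn2, Muc5ac and Gif were at 0 in the control pool and none was at 0 in the Setd2 KO pool. With 1 library per genotype, such values cannot be told apart from the genotype.

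Of the 10 annexins, 3 were at least 2-fold higher in the Setd2 KO pool, and 0 were at least 2-fold lower. The 3 were Anxa10, Anxa1 and Anxa3, and the abundant members Anxa2, Anxa4 and Anxa13 were at similar levels in the 2 pools. The rule compared log2(FPKM + 1) between the libraries and took a difference of 1 or more as 2-fold. By the same rule 2.78% of the 13253 measured genes were higher and 1.28% lower, 4.07% in either direction, where measured means an FPKM of 1 or more in at least 1 library. All 10 annexins were measured, and each of them reached 1 FPKM in both pools. The median log2 ratio of the 10 was 0.21, against 0.08 over all measured genes, and 8 of the 10 were above 0, against 62.5% of measured genes. In such bulk RNA, fewer cells of a type and less RNA per cell cannot be told apart.

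**Figure D1:**
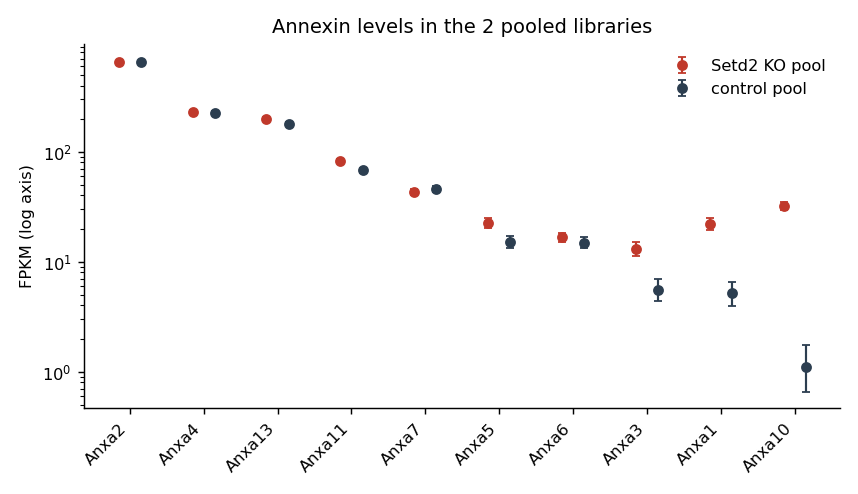
Level of each annexin in FPKM on a log axis, in the Setd2 KO pool (red) and the control pool (dark), ordered by the control level; bars are 95% Poisson intervals for counting error only, with 1 library per genotype. The order is the same in both pools down to Anxa7. The pools are more than 2-fold apart at Anxa3, Anxa1 and Anxa10, which is at 32.28 FPKM in Setd2 KO and 1.11 FPKM in control. The bars of the pools also do not overlap for Anxa5, Anxa11 and Anxa13, which differ by less than 2-fold.

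The family spanned a wide range of levels per transcript length. Anxa2 was the highest member in both pools and made up 49.5% of the summed annexin FPKM in Setd2 KO and 54.1% in control. In both pools Anxa4, Anxa13, Anxa11 and Anxa7 followed in this order, and the 95% counting intervals of neighbours in this order did not overlap. Below them the order differed. In the Setd2 KO pool it ran Anxa10, Anxa5, Anxa1, Anxa6 and Anxa3, where the intervals of Anxa5 and Anxa1 overlapped, as did those of Anxa6 and Anxa3. In the control pool it ran Anxa5, Anxa6, Anxa3, Anxa1 and Anxa10, where those of Anxa5 and Anxa6 overlapped, as did those of Anxa3 and Anxa1. The summed level was 1311 FPKM in Setd2 KO and 1221 FPKM in control, a ratio of 1.07. Scaling the libraries by the median gene ratio brought this to 1.01. Leaving out Anxa2 raised it to 1.18, from 661 FPKM in Setd2 KO and 561 FPKM in control.

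Anxa2 (gene identifier 12306, chromosome 9, 69453683 to 69491792) links membranes to actin and, with its light chain S100a10, holds plasminogen and its activators at the cell surface. It was at 649.22 FPKM in Setd2 KO and 660.04 FPKM in control, from 7652 expected counts in Setd2 KO and 7928 in control. The ratio of the counts, each scaled to its library total, was 0.983 (0.953 to 1.01). Its deposited level ranked 117 in the Setd2 KO pool and 112 in the control pool among all 18919 genes. Anxa4 (chromosome 6, 86736840 to 86793634), a regulator of membrane traffic and chloride conductance in secretory and absorptive epithelia, was at 230.5 FPKM in Setd2 KO and 225.68 FPKM in control. Its count ratio was 1.02 (0.977 to 1.07), and its log2 ratio of 0.03 turned to -0.06 after scaling by the median gene ratio. Anxa13 (chromosome 15, 58341464 to 58389274), the annexin with the most intestine-restricted expression, takes part in apical delivery in epithelial cells. It was at 198.83 FPKM in Setd2 KO and 179.19 FPKM in control, with a count ratio of 1.11 (1.05 to 1.18). With library sizes from the median ratio this was 1.05 (0.989 to 1.11), which held 1. The count ratios of these 3 annexins lay between 0.983 and 1.11. The enterocyte markers in the same pools had a summed count ratio of 0.742 (0.739 to 0.746). Single ones ran from 0.517 for Ace to 1.19 for Alpi. The count intervals of 11 of these 12 markers lay below 1, and that of Alpi lay above 1. Over all measured genes 12.5% lay below 1 and 28.0% above. Intervals are narrow at the high counts of these markers.

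Anxa11 and Anxa7 are the members with long proline-rich tails, and both are linked to vesicle transport and granule secretion. Anxa11 (chromosome 14, 25842127 to 25886804) was at 82.33 FPKM in Setd2 KO and 68.0 FPKM in control, from 1724 expected counts in Setd2 KO and 1451 in control, a ratio of 1.21 (1.13 to 1.30). Of the windows of 50 bases in its annotated coding transcript, 26.0% also occur in the annotated genes Gm2260 and Gm2274, and the annotation has an antisense gene, Anxa11os, inside it. None of these 3 is in the deposited table, and the use of strand in counting is not given in the sources used here, so reads from them and from Anxa11 cannot be told apart. For the other 9 members no window of 50 bases occurred in a transcript of another gene, and the expected counts of all 10 were whole numbers in both libraries. Anxa7 (chromosome 14, 20455261 to 20480133), first known as synexin for its action on secretory granules, was at 43.3 FPKM in Setd2 KO and 45.87 FPKM in control. Its ratio was 0.945 (0.869 to 1.03).

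Anxa6 and Anxa5 had moderate levels. Anxa6 (chromosome 11, 54978953 to 55033471), the annexin with a duplicated core, acts in endocytosis and cholesterol traffic. It was at 16.61 FPKM in Setd2 KO and 14.91 FPKM in control, a count ratio of 1.12 (0.965 to 1.30) whose interval held 1. The deposited gene length, which RSEM averages over the transcripts it finds in a library, was 2661 bases in Setd2 KO and 2650.93 bases in control for Anxa6. For Anxa7 it was 2867.18 bases in Setd2 KO and 2862.93 bases in control, and for the other 8 members it was the same in both. Anxa5 (chromosome 3, 36448923 to 36475887) binds exposed phosphatidylserine and is used as the probe for dying cells. It was at 22.48 FPKM in Setd2 KO and 15.18 FPKM in control, from 337 expected counts in Setd2 KO and 232 in control. The ratio of 1.48 (1.25 to 1.76) was above 1 but under 2-fold, and 1228 of the measured genes had a higher log2 ratio than its 0.54.

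Anxa10 (gene identifier 26359, chromosome 8, 62057042 to 62123193) showed the widest gap in the family. This member lacks most of the calcium-binding residues of the other annexins and is known from the surface epithelium of the stomach. It was at 32.28 FPKM in Setd2 KO and 1.11 FPKM in control, from 513 expected counts in Setd2 KO and 18 in control. The count ratio was 29.0 (18.2 to 49.4) and the log2 ratio after the pseudocount 3.98, and 18 of the 13253 measured genes had a higher one. Its share of the summed annexin FPKM was 2.46% in Setd2 KO and 0.0909% in control. The stomach genes listed beside it also had higher summed counts in the Setd2 KO pool, with a ratio of 14.8 (11.7 to 19.1) over all 9. All 7 of the measured ones were under 1 FPKM in the control pool and counted as measured through the Setd2 KO pool alone, so a count of those past 2-fold says little. Among them Tff2, a trefoil peptide of gastric neck cells, was at 27.58 FPKM in Setd2 KO and 0.83 FPKM in control. Gkn1, a gastrokine of the gastric surface, was at 22.24 FPKM in Setd2 KO and 0.28 FPKM in control. The part of stomach transcripts in the Anxa10 value was not tested.

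Anxa1 (gene identifier 16952, chromosome 19, 20373434 to 20390671), a glucocorticoid-induced protein that dampens inflammation through formyl peptide receptors and promotes closure of mucosal wounds, was at 22.05 FPKM in Setd2 KO and 5.16 FPKM in control. These values rested on 264 expected counts in Setd2 KO and 63 in control, a ratio of 4.27 (3.23 to 5.71), and 110 measured genes had a higher log2 ratio than its 1.90. Anxa2 exceeded Anxa1 29.4-fold in Setd2 KO and 128-fold in control on the FPKM scale. Anxa3 (gene identifier 11745, chromosome 5, 96793385 to 96845968), a member linked to phagosomes of neutrophils and to epithelial tumours, was at 13.05 FPKM in Setd2 KO and 5.56 FPKM in control. With 182 expected counts in Setd2 KO and 79 in control its ratio was 2.35 (1.79 to 3.10). The lower end of that interval lies under 2, and its log2 ratio ranged from 1.02 to 1.23 over the alternatives tried, so Anxa3 sat just past the 2-fold rule in each of them. The 3 genes together had 67.4 FPKM in Setd2 KO and 11.8 FPKM in control, while the other 7 had 1243 FPKM in Setd2 KO and 1209 FPKM in control.

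**Figure D2:**
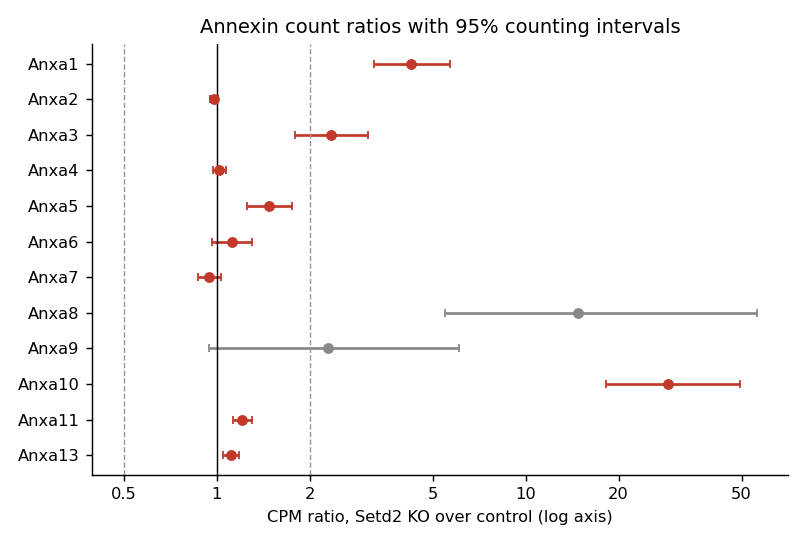
Ratio of counts scaled to the library total (CPM), Setd2 KO over control, on a log axis for each annexin in the table, with 95% exact intervals for counting error; members are red, Anxa8 and Anxa9 grey, and dashed lines mark 2-fold. Anxa10 at 29.0, Anxa1 at 4.27 and Anxa3 at 2.35 lie right of the 2-fold line among the members, and the intervals of Anxa2, Anxa4, Anxa6 and Anxa7 cross 1.

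Taking the counting interval alone, 6 of the 10 members lay above 1, against 28.0% of measured genes, 0 lay below 1, against 12.5%, and 4 held 1. These intervals depend on the scaling. With library sizes taken from the median count ratio, 5 lay above 1, against 20.2% of measured genes. With these sizes Anxa2 at 0.929 (0.900 to 0.959) and Anxa7 at 0.893 (0.821 to 0.971) lay below 1, against 18.3% of measured genes. The 5 above 1 under both scalings were Anxa1, Anxa3, Anxa5, Anxa10 and Anxa11.

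The 250 bases before the start sites of Anxa10 and Anxa1, the members with the highest ratios, are shown with those of Anxa2, whose level was close between the pools. They come from RefSeq (GRCm38.p6, the build of mm10) and are written 5′ to 3′ on the strand of the gene. Capitals mark the letters of 4 motifs that were searched for on both strands. The TATA box was searched as TATAAA. The site of AP-1, the dimer of Fos and Jun proteins, was searched as TGANTCA. The site of TEAD factors, which act with Yap, was searched as GGAATG. The site of TCF/LEF factors, which act with beta-catenin, was searched as CTTTGAT.
Anxa10, chr8:62123194-62123443, minus strand: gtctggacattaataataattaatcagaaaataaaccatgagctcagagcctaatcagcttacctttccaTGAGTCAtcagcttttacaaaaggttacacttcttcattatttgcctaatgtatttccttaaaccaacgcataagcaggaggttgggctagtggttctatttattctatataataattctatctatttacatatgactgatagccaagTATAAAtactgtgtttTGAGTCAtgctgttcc
Anxa1, chr19:20390672-20390921, minus strand: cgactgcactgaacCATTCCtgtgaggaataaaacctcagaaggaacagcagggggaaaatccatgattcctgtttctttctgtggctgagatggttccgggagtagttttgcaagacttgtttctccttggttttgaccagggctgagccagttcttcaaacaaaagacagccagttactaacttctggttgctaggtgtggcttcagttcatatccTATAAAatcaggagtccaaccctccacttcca
Anxa2, chr9:69453433-69453682, plus strand: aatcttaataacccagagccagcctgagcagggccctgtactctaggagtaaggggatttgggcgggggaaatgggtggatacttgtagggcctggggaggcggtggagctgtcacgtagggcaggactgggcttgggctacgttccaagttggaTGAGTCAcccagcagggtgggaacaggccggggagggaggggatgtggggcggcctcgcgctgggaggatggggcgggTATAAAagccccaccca

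The TATA letters began 32 bases before the start site in both Anxa10 and Anxa1, and 17 bases before it in Anxa2. Over all 32851 promoter windows of this length, 12.4% held them. AP-1 letters occurred at 180 and 16 bases before the start site of Anxa10 and at 95 bases before that of Anxa2, against 6.75% of all windows. TEAD letters occurred once, in Anxa1 on the opposite strand at 236 bases, against 12.6% of windows, and TCF/LEF letters, held by 3.21% of windows, in none. No 2 of these motifs overlapped in the 3 windows. Of the members, 7 matched the promoter table, and the windows of Anxa4, Anxa5, Anxa7 and Anxa11 held none of the 4 motifs. CpG pairs numbered 1 in the window of Anxa10 and 2 in that of Anxa1. They numbered 9 in Anxa2, 13 in Anxa5 and 17 in Anxa11. Anxa4 and Anxa7 have a pair of start sites each, with 13 and 2 CpG for Anxa4 and 16 and 2 for Anxa7, and the median over all windows was 6. A match is a match of letters and says nothing of binding in these samples.

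Each annexin has a nearest protein-coding gene of the table on either side, which makes 20 neighbours, and 13 of them were measured. Of the 13, 0 were at least 2-fold higher and 0 at least 2-fold lower, beside 2.78% and 1.28% of all measured genes, shares at which few or none of 13 would pass. Ccdc69, 16.3 kb from Anxa6 and named after its values were seen, was at 1.31 FPKM in Setd2 KO and 2.82 FPKM in control. Its count ratio was 0.466 (0.241 to 0.864), and its log2 ratio after the pseudocount was -0.73. Ddx60, an RNA helicase gene 19.3 kb from Anxa10, was at 17.0 FPKM in Setd2 KO and 12.32 FPKM in control. Aldh1a1, a retinal dehydrogenase gene 102 kb from Anxa1, was at 160.54 FPKM in Setd2 KO and 141.45 FPKM in control, and Bmp2k, 152 kb from Anxa3, was at 6.71 FPKM in Setd2 KO and 7.5 FPKM in control.

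Anxa8 and Anxa9, the annexins outside the rule, were rare in both pools. Anxa8 (chromosome 14, 34085979 to 34100571), an annexin of stratified epithelia, was at 3.55 FPKM in Setd2 KO and 0.25 FPKM in control, from 58 expected counts in Setd2 KO and 4 in control. Its count ratio was 14.8 (5.47 to 56.0), past 2-fold. Anxa9 (chromosome 3, 95296093 to 95315180) was at 1.11 FPKM in Setd2 KO and 0.48 FPKM in control, and with 18 expected counts in Setd2 KO and 8 in control its interval of 0.948 to 6.09 held 1. Both counted as measured through the Setd2 KO pool alone.

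Partner genes of the annexins were described from 6 lists with 50 genes in the table, 40 of them measured. Of these, 3 were at least 2-fold higher in the Setd2 KO pool, namely S100a6, Plaur and Capn2, and 0 were lower, beside the 2.78% and 1.28% of all measured genes. The number past 2-fold depends on the pseudocount and was 7 with a pseudocount of 0.1 and 8 with 0.01. Plat, Plau, Serpine2 and Plscr4 were added by both. The number of all 13253 measured genes called higher also rose, from 369 to 699 with 0.1 and 758 with 0.01. The median log2 ratio of the 40 was 0.12.

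The S100 partners dock on annexin tails. S100a10, the light chain of Anxa2, was at 535.43 FPKM in Setd2 KO and 467.71 FPKM in control, a ratio of 1.14 (1.09 to 1.21). It stood to Anxa2 as 0.825 to 1 in Setd2 KO and 0.709 to 1 in control on the FPKM scale. S100a11, which binds the tail of Anxa1, was at 204.72 FPKM in Setd2 KO and 120.92 FPKM in control, a ratio of 1.69 (1.51 to 1.89). Since Anxa1 differed more, S100a11 exceeded it 9.28-fold in Setd2 KO and 23.4-fold in control. S100a6, or calcyclin, which binds Anxa11 and Anxa2, was at 178.34 FPKM in Setd2 KO and 72.25 FPKM in control, a ratio of 2.47 (2.21 to 2.76). S100a4 was at 3.09 FPKM in Setd2 KO and 2.8 FPKM in control, from 13 expected counts in Setd2 KO and 12 in control, and S100b was not measured. The tails that S100a11 and S100a10 bind are encoded at the start of the Anxa1 and Anxa2 reading frames. The first 60 coding bases of each are given from the GENCODE transcripts (GRCm38) with the start codon in capitals, to show how far the tails differ between these members.
Anxa1, start codon at chromosome 19, 20384758, minus strand: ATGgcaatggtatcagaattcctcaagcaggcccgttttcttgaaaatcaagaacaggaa
Anxa2, start codon at chromosome 9, 69464477, plus strand: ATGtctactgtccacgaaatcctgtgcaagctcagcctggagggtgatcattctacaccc

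The genes of the plasminogen system described here, Plaur, Plau, Plat and Serpine2, had count intervals above 1, beside 28.0% of all measured genes. Plaur, the urokinase receptor, was at 7.56 FPKM in Setd2 KO and 1.59 FPKM in control, a ratio of 4.75 (2.95 to 8.02). Plau, the urokinase itself, was at 6.84 FPKM in Setd2 KO and 2.99 FPKM in control, a ratio of 2.28 (1.68 to 3.13), and its log2 ratio of 0.97 was just under the rule. Plat, the tissue activator that binds the Anxa2 complex, was at 6.05 FPKM in Setd2 KO and 2.95 FPKM in control, a ratio of 2.05 (1.52 to 2.79). Serpine2, which encodes an inhibitor of serine proteases, was at 2.9 FPKM in Setd2 KO and 1.31 FPKM in control, a ratio of 2.21 (1.34 to 3.74). Plg, which encodes plasminogen and is made in the liver, had 2 counts in Setd2 KO and 0 in control.

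The receptors of Anxa1 were at the limit of detection. Fpr1 had 0 counts in each library, which allows up to 0.347 CPM in Setd2 KO and 0.341 CPM in control by a limit of 3 counts per library, and Fpr2 had 2 counts in each. The neutrophil proteases Elane and Prtn3, which cleave the Anxa1 tail, had 1 and 0 counts in Setd2 KO and 0 and 1 in control. Adam10, a further protease of the list, was at 27.6 FPKM in Setd2 KO and 24.09 FPKM in control, and the kinase Trpm7 was at 9.45 FPKM in both.

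**Figure D3:**
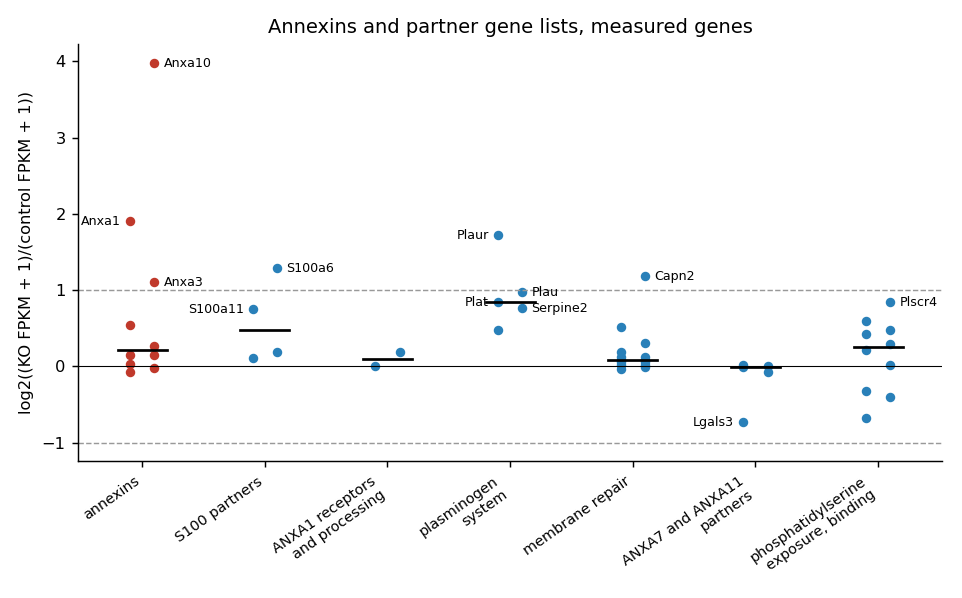
Difference in log2(FPKM + 1), Setd2 KO minus control, for the measured annexins (red) and the measured genes of 6 partner lists (blue); black bars are list medians, dashed lines mark 2-fold, and genes 0.7 or more from 0 are named. Anxa10, Anxa1 and Anxa3 are past the upper line, as are S100a6, Plaur and Capn2, and no gene is past the lower line.

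Of 14 measured genes of membrane repair, 1 was at least 2-fold higher and 0 lower, beside 2.78% and 1.28% of all measured genes. The count intervals of 3 lay above 1 and of 0 below, beside 28.0% and 12.5% of all measured genes, and 11 held 1. The 1 past 2-fold was Capn2, the large subunit of a calcium-activated protease, at 13.4 FPKM in Setd2 KO and 5.34 FPKM in control. Its ratio was 2.51 (2.07 to 3.05). Myof, the fusion protein myoferlin, was at 3.65 FPKM in Setd2 KO and 2.27 FPKM in control. Cav1, of caveolae, was at 11.8 FPKM in Setd2 KO and 12.17 FPKM in control, and Ahnak, a giant protein bound by S100a10 and Anxa2, at 31.49 FPKM in Setd2 KO and 31.81 FPKM in control. Chmp4b, the most abundant of the list and a subunit of the membrane-sealing ESCRT machinery, was at 151.38 FPKM in Setd2 KO and 143.44 FPKM in control. The median log2 ratio was 0.08, the value of all measured genes.

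The partners of Anxa7 and Anxa11 had levels as close as those annexins themselves, with 1 exception. Pdcd6, the calcium sensor ALG-2 that binds the Anxa11 and Anxa7 tails, was at 129.39 FPKM in Setd2 KO and 127.41 FPKM in control. Pef1, its dimer partner, was at 66.09 FPKM in Setd2 KO and 65.95 FPKM in control. Sri, or sorcin, had a count ratio of 0.992 (0.933 to 1.05), and Sec31a, of the COPII coat, one of 0.953 (0.911 to 0.996). Lgals3, an epithelial galectin, was at 295.97 FPKM in Setd2 KO and 491.2 FPKM in control, a ratio of 0.603 (0.578 to 0.628).

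Genes that expose or bind phosphatidylserine, the lipid ligand of Anxa5, went both ways. Of 10 measured, none was past 2-fold by the rule, beside 4.07% of all measured genes. Log2 ratios were above 0 for 7 and below 0 for 3, beside 62.5% of all measured genes above 0. In these counts the list stood near all measured genes. Plscr4, a scramblase family member, was at 4.05 FPKM in Setd2 KO and 1.83 FPKM in control, with a count ratio of 2.21 (1.58 to 3.12). Xkr8, the scramblase cut by caspases, was at 3.66 FPKM in Setd2 KO and 2.09 FPKM in control. Ano6, the calcium-activated scramblase, was at 33.48 FPKM in Setd2 KO and 54.38 FPKM in control, a ratio of 0.617 (0.580 to 0.655). Mertk, a receptor for dying cells and the most abundant of the list, was at 51.45 FPKM in Setd2 KO and 68.42 FPKM in control.

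Markers of cell types that express annexins were set beside the 3 higher members. Over all measured genes, 2.78% were at least 2-fold higher and 1.28% lower. At these shares few or none of a short list would pass, so a count of 0 past 2-fold says little. For neutrophils, rich in Anxa1 and Anxa3, 0 of 6 measured markers were past 2-fold. Their summed expected counts were 186 in Setd2 KO and 146 in control over 10 listed genes, with Mpo and Mmp8 at 0 in the control pool. Macrophage markers summed to 229 FPKM in Setd2 KO and 242 FPKM in control, with 0 of 9 past 2-fold. Fibroblast markers summed to 128 FPKM in Setd2 KO and 109 FPKM in control, with 0 of 8 past 2-fold, and smooth muscle markers to 503 FPKM in Setd2 KO and 512 FPKM in control, with 0 of 8. Endothelial markers, with 1 of 8 higher, summed to 77.3 FPKM in Setd2 KO and 61.7 FPKM in control. Mesothelial markers summed to 2.50 FPKM in Setd2 KO and 4.77 FPKM in control, with 1 of 2 measured lower. The summed counts of these 6 lists had ratios between 0.486 and 1.30. Single markers in them had higher ratios, named here after their values were seen. The endothelial cadherin Cdh5 had 2.37 (1.88 to 3.02). The neutrophil gene S100a9 had 2.45 (0.802 to 8.86), from 12 expected counts in Setd2 KO and 5 in control, and Camp had 4 in Setd2 KO and 1 in control. Of the 6 measured neutrophil markers, 3 had a log2 ratio above 0 and 3 below, beside 62.5% of all measured genes above 0. The 3 below were S100a8 at -0.13, Csf3r at -0.12 and Ly6g at -0.02. Most of the neutrophil counts came from the receptor genes Cxcr2 and Csf3r.

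Markers of regenerating epithelium, a list that shares no gene with the annexins here, had 3 of 7 measured genes at least 2-fold higher, beside 2.78% of all measured genes. Their summed count ratio was 3.16 (2.99 to 3.34). Their summed level was 334 FPKM in Setd2 KO and 106 FPKM in control, and Clu, Spp1 and Krt7 were the 3. Clu alone held 3088 of the 5022 summed expected counts in Setd2 KO and 577 of the 1620 in control. The other measured genes, Ly6a, Il33, Ctgf and Cyr61, had count ratios of 1.06, 0.974, 1.21 and 1.49, within 2-fold. Crypt stem cell markers had 2 of 8 higher, Axin2 and Ephb3, and summed to 180 FPKM in Setd2 KO and 136 FPKM in control. The rest of that list was within 2-fold, with count ratios from 1.17 for Olfm4 to 1.96 for Sox9. The same 2.78% of all measured genes stands beside this list and the lists that follow. Red cell transcripts, with 4 of 4 measured higher, summed to 240 FPKM in Setd2 KO and 66.1 FPKM in control. Exocrine pancreas markers, with 12 of 12 higher, had a count ratio of 37.2 (34.5 to 40.3). Goblet, tuft and lymphocyte markers had summed count ratios below 1, at 0.626, 0.830 and 0.765. The part of any of these cell types in the values of Anxa1, Anxa3 and Anxa10 was not tested.

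**Figure D4:**
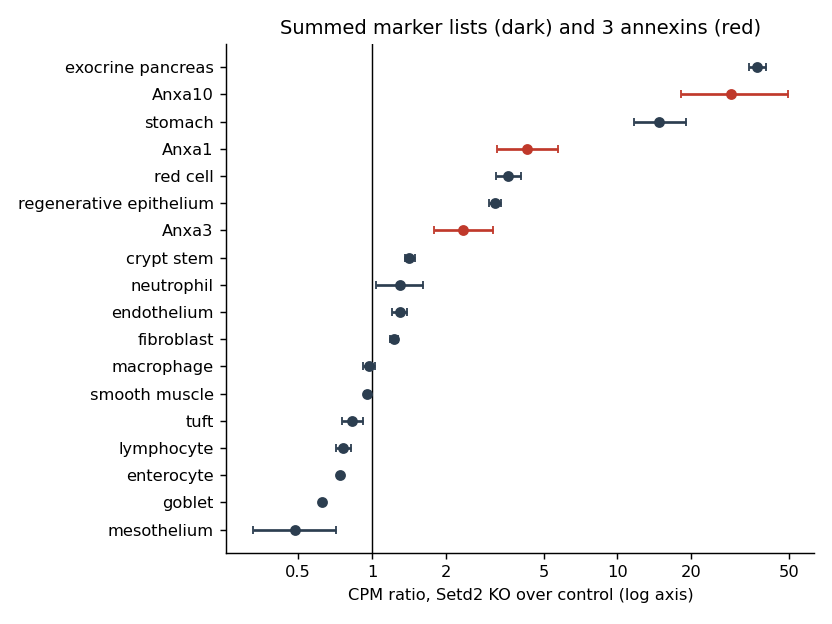
Ratio of summed counts, Setd2 KO over control, on a log axis for each marker list (dark) and for Anxa10, Anxa1 and Anxa3 (red), with 95% counting intervals. Anxa10 at 29.0 lies between the exocrine pancreas list at 37.2 and the stomach list at 14.8, Anxa1 lies just above the red cell list at 3.59, and Anxa3 lies between the regenerating epithelium list at 3.16 and the crypt stem list at 1.42.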

How the data were processed

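RNA of intestine was sequenced for 2 pooled libraries. Per the labels' protocols and the submitters' processing notes, the authors aligned reads to mm10 with BWA and Bowtie2 and quantified genes with RSEM, with versions not given in the sources used here. The authors deposited RSEM expected counts (estimated counts, 78.2% whole in Setd2 KO and 78.1% in control), gene length and FPKM for each library. The deposited series table repeats the FPKM, and these FPKM were used as given. Expected counts were rounded for ratios of CPM. Their 95% intervals are Clopper-Pearson intervals of the Setd2 KO share of the counts (scipy 1.17.1), and intervals of a level are exact Poisson intervals. Intervals and the limit of 3 counts cover counting error only. Called genes had a log2 ratio of 1 or more in size after a pseudocount of 1 FPKM. With 1 library per genotype no test between genotypes was run. The steps were tested on simulated data with counting error only. There the rule called 18.0% of genes set 2-fold higher and 30.0% of those set 2-fold lower. It called 96.0% of those set 4-fold higher and 0.636% of unchanged genes. A gene near 2-fold is thus often not called. Gene symbols turned into dates were repaired from identifiers for 26 genes. Positions are RefSeq GRCm38.p6. The rule for named genes took every annexin and every measured partner of lists with 5 or fewer, and otherwise the 2 highest, the 2 lowest and the most abundant. A result on 1 partner is not reported here. Neighbours were taken by position. The members, partner lists and marker lists were chosen with earlier results of these data known, and marker examples after their values were seen. Alternatives changed the pseudocount, the filter on low values, the scaling and the rounding.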

Additional observations from a re-analysis of the deposited data

How the results depend on the processing

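Across the pseudocounts, filters and scalings tried, 3 annexins were at least 2-fold higher and 0 lower each time, and their median log2 ratio ranged from 0.13 to 0.23. The summed annexin level ratio of 1.07 was 1.01 after scaling FPKM by the median ratio and 1.18 without Anxa2, the most abundant member. Partner genes past 2-fold numbered 3 higher, against 7 with a pseudocount of 0.1, 8 with 0.01 and 5 with CPM in place of FPKM. Over all measured genes, 369 were higher and 170 lower, against 699 and 282 with a pseudocount of 0.1 and 758 and 301 with 0.01. A minimum of 5 FPKM gave 191 and 84, rescaling to TPM gave 613 higher and CPM in place of FPKM gave 544 higher. A smaller pseudocount shrinks the log2 ratios of genes with low FPKM less, and a higher minimum tests fewer genes. For the others the cause was not tested. Of 90 values of single annexins under alternatives, 83 moved by less than the counting interval, 7 moved by more and 0 of those called changed sign. Among those not called, Anxa4 changed sign, to -0.06 with median scaling against 0.03 as deposited. No paired analysis was possible because each genotype had 1 library, and for the same reason no library could be left out. Depth limits Anxa10 in the control pool (18 counts), Anxa8 (4), Anxa9 (8) and the formyl peptide receptors.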
